A study of Saccharomyces cerevisiae with 219 samples.

Results

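Translation elongation factors carry the ribosome along the mRNA, and recycling factors split the ribosome after each protein is finished. In yeast they are encoded by TEF1 (YPR080W), TEF2 (YBR118W), TEF4 (YKL081W), CAM1 (YPL048W), EFB1 (YAL003W), EFT1 (YOR133W), EFT2 (YDR385W), YEF3 (YLR249W), HYP2 (YEL034W) and RLI1 (YDR091C), and these are 10 of the 5710 genes on the arrays. They were picked by symbol, as the cytosolic factors of these steps, after values of the course sampled every 0.5 h were known: YEF3 had been noted for its change between 0.5 h and 5 to 8 h of that course, and RLI1 for its change within it. The values of that course are therefore given without a test, and no test of RLI1 is given where the same 0 h cells are involved.

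RNA from Saccharomyces cerevisiae was hybridized to 219 spotted oligonucleotide arrays, the sample in one dye and a common reference in the other. The reference was a 1:1 mix of RNA from stationary and exponential cells. Every value is therefore a log2 ratio to that mix, from which the median of the array was subtracted (a centred log2 ratio). A value of 0 is the typical gene of that array, and values of different genes are compared only by their differences between groups.

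Menadione, a quinone that generates oxidative stress, was added at 50 uM to S288c cells held for 7 days in YPD+A, a rich glucose medium with adenine. S288c is described in the methods as a MATα strain auxotrophic through his3, leu2, lys2, trp1 and ura3 alleles. The labels name menadione for the course in seconds only, and for the courses in minutes and hours the treatment comes from the methods. Cells of the hours course were taken at 0.5 to 8 h (2 arrays at each time) and at 0 h (6 arrays), those of the minute course at 1 to 35 min and 60 min (2 each) and at 0 min (6), and those of the ten-second course at 10 to 180 s and 300 s (1 each) and at 0 s (6). The 30-480 min course (32 arrays, 2 at each time) had no 0 min sample, and by the methods it followed an upshift in temperature of stationary cells. The polymerase set held the mutant rpb1-1 (MATa ura3-52 rpb1-1), whose RNA polymerase II fails at high temperature, its RPB1 parental strain (MATα ura3-52) and S288c. All were grown to stationary phase and moved to the non-permissive temperature before sampling, at 2 and 30 min of menadione (1 array each) and at 0 min (2 each). The lysate set (28 arrays) held cell-free extracts of stationary and of exponential cells incubated on ice with trypsin, proteinase K or Qiagen protease, or with buffer alone, with 2 arrays in each group, and extracts taken 2 min after menadione in the trypsin series. The isolation set held RNA of untreated stationary cells isolated with proteinase K, with hot phenol or by the laboratory's own protocol (2 arrays each). The paper describes the replicates of the lysate and isolation sets as biological. For the courses in minutes and hours the methods state that harvest and array measurement were done in duplicate. They also mention 6 biological and technical replicates of untreated samples, without naming the arrays. For the remaining sets the sources used give only replicate numbers. Outside the lysate and isolation sets a p-value therefore measures the spread between arrays, which may be technical. Fewer transcripts per cell and a smaller share of cells that hold them cannot be told apart in such bulk RNA.

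In the elongation cycle, eEF1A (TEF1 and TEF2, encoding the same protein) brings aminoacyl-tRNA to the ribosome, and the eEF1B complex recharges it with GTP: EFB1 encodes the catalytic alpha subunit, and TEF4 and CAM1 each encode a form of the gamma subunit. eEF2 (EFT1 and EFT2, again encoding the same protein) moves the ribosome by one codon. eEF3 (YEF3) is an ATPase that fungi need in addition and that helps the spent tRNA leave, HYP2 encodes the form of eIF5A made in the presence of oxygen, which helps peptide bonds form where a ribosome stalls, and RLI1 encodes the iron-sulfur ATPase ABCE1, which splits ribosomes after termination. The mRNAs of most of these factors are among the abundant transcripts of growing yeast and are known to decline with the ribosomal protein mRNAs when growth stops.

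The label of growth phase was checked by the mean of 9 stationary phase markers on each array. It lay between 1.69 and 2.21 at 0 h of the hours course. Later in that course it was 0.45 and 0.58 at 0.5 h and −0.66 to 0.20 at 1 to 2 h. It was −0.21 to 1.31 at 2.5 to 4.5 h and 0.54 to 1.48 at 5 to 8 h. The mean lay between 0.92 and 2.55 over the minute course and between 1.38 and 3.25 over the 30-480 min course. On the 8 exponential arrays of the trypsin and proteinase K series it was −8.11 to −6.56. The 4 exponential arrays of the Qiagen series stood apart at −1.24 to 0.11. In stationary lysates of that series the mean was close to these, at −0.46 and −0.05 in buffer and −1.26 and −0.19 with protease. In stationary buffer lysates of the trypsin series without menadione it was 2.16 and 2.78. On 3 of the 4 stationary arrays of the proteinase K series (both with protease and buffer replicate 2) it was −7.52 to −6.75, and on the remaining one −0.27, so that these arrays went against their label. In the polymerase set it was 0.77 to 1.85 at 2 and 30 min and −1.19 to −0.05 at 0 min.

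Several arrays held nearly the same values as an array of another set. S288c at 2 and 30 min of the polymerase set equalled 2 min (replicate 1) and 30 min (replicate 2) of the minute course (r = 1 across genes), and S288c at 0 min matched 0 s replicates 4 and 5 of the ten-second course (r = 0.999). Both arrays at 30 min of the 30-480 min course matched 2 min lysates of the trypsin series (r = 0.991 and 0.994), and the 6 arrays at 0 h matched the 6 at 0 min (r = 0.977 to 0.981). Comparisons that use such arrays are given without them as well, except that all 6 arrays at 0 min matched arrays at 0 h, so that no comparison with 0 min could be made without them. TEF1 and TEF2 differ little in sequence, as do EFT1 and EFT2, so each probe may have bound both transcripts. Over 209 arrays TEF1 and TEF2 had a correlation of 0.98 and their difference an SD of 0.28, and EFT1 and EFT2 had one of 0.96 with an SD of 0.55 over 218 arrays, so the copies are not independent measurements.

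Growth phase was compared in buffer lysates. The question was how far mRNAs of the elongation factors differed between stationary and exponential cells in extracts that received no protease. Among the stationary arrays compared, only those of the trypsin series had stationary marker means like those of the courses. Of the 9 genes tested, 8 were lower in stationary lysates, where 17.9% of the 2410 genes tested were called lower and 19% higher. A gene is called if its p after adjustment over all genes is below 0.05 and it changed 2-fold or more. The median of the 9 differences was −3.06, against 0.02 over all genes tested. The largest was that of YEF3, 36.8-fold lower, followed by TEF4 (16.9-fold). With quantile normalization 4 of the 9 were called lower, YEF3, TEF4, EFT1 and TEF2, where 12% of genes were, and EFB1 (−2.50, adjusted p = 0.053), EFT2 (−2.65, adjusted p = 0.052), HYP2 (−1.42, adjusted p = 0.10) and TEF1 (−1.41, adjusted p = 0.10) no longer passed.

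YEF3, encoding eEF3, stood in stationary lysates at −5.64 and −5.27 in the trypsin series, 0.48 and 0.44 in the Qiagen series and 0.92 and 3.76 in the proteinase K series. In exponential lysates it stood at 4.44 and 4.09, 5.86 and 3.30, and 4.15 and 4.05 in the same series. Only the stationary proteinase K replicate 2, which carried exponential marker levels, reached the exponential range. The means were −0.89 ± 3.75 in stationary and 4.32 ± 0.85 in exponential lysates (SD, n = 6 each), a difference of −5.20 (SE 1.37, adjusted p = 0.013, limma).

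TEF4, a gamma subunit of eEF1B, read −5.38, −4.66, −0.88, −1.01, −0.51 and 3.20 in stationary lysates in the same order of series, against 4.14, 4.24, −0.21, 0.94, 3.33 and 2.80 in exponential lysates. The groups overlapped through the stationary proteinase K replicate 2 alone. Its difference was −4.08 (SE 1.10, adjusted p = 0.014). CAM1, the other gamma subunit, ran between −1.92 and 1.77 (median −0.74) in stationary lysates and between 0.16 and 1.10 (median 0.87) in exponential ones, and its difference of −1.13 (SE 0.56, 95% interval −2.31 to 0.04, adjusted p = 0.11) did not pass the test. EFB1, the catalytic subunit, ran between −3.04 and 4.29 (median −0.09) in stationary and between 2.39 and 3.92 (median 2.93) in exponential lysates, with a difference of −3.06 (SE 0.93, adjusted p = 0.019).

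The eEF2 genes moved alike. EFT1 ran between −4.82 and 1.98 in stationary lysates and between 0.84 and 4.21 in exponential lysates, a difference of −3.31 (SE 0.95, adjusted p = 0.016). EFT2 ran between −4.29 and 2.65 in stationary and between 0.91 and 4.28 in exponential lysates, a difference of −3.23 (SE 0.97, adjusted p = 0.018). The eEF1A genes differed less: TEF1 averaged −0.22 ± 1.97 in stationary and 1.55 ± 0.65 in exponential lysates (difference −1.77, adjusted p = 0.038), and TEF2 averaged −0.53 ± 1.86 and 1.69 ± 0.69 in the same groups (difference −2.22, adjusted p = 0.012). HYP2, the eIF5A gene, differed by −1.80 (SE 0.60, adjusted p = 0.027).

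RLI1 was measured on 17 of the 28 lysate arrays and was not tested. All 17 values lay above 0, between 0.59 and 6.94. In buffer lysates it had 3.04, 2.41, 5.24 and 1.27 on 4 stationary arrays and 6.09 and 2.81 on 2 exponential arrays, and the groups overlapped.

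**Figure D1:**
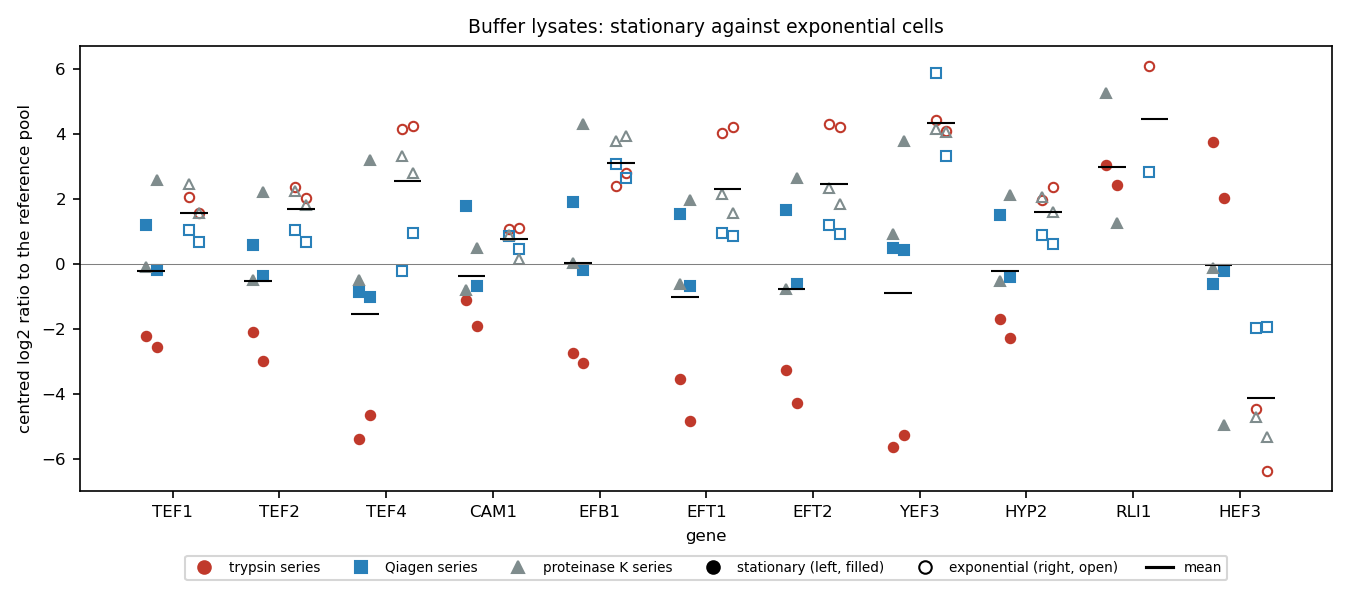
Centred log2 ratio to the reference pool of each gene in buffer lysates, stationary (left, filled) and exponential (right, open), 1 point per array with the mean as a bar and the protease series by symbol. The trypsin series points of YEF3, TEF4, EFT1 and EFT2 lie farthest apart, and HEF3 runs the other way.

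The series did not contribute equally. Within the trypsin series all 9 genes were lower in stationary lysates (23.2% of 2502 genes were called lower and 24.5% higher), with differences of −9.72 for YEF3 (SE 2.36, adjusted p = 0.0045), −9.21 for TEF4, −8.30 for EFT1, −8.02 for EFT2, −5.48 for EFB1, −4.74 for TEF2, −4.21 for TEF1, −4.16 for HYP2 and −2.60 for CAM1 (adjusted p = 0.036). Within the Qiagen series 0.0405% of genes were called lower and within the proteinase K series 0%, and none of the 9 genes was called there by limma. YEF3 still differed by −4.12 (SE 2.37, adjusted p = 0.74) and −1.76 (SE 2.36, adjusted p = 0.86) in these series. With the proteinase K series left out, 7 of the 9 were lower, where 14.9% of genes were. Among single arrays, leaving out stationary proteinase K buffer replicate 1 left none of the 9 called, and leaving out stationary Qiagen buffer replicate 2 left 4. TEF1 lost its call in 10 of the 12 fits that each left out 1 array (adjusted p = 0.052 to 0.14) and HYP2 in 6 of 12 (adjusted p = 0.055 to 0.11).

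HEF3, the paralog of YEF3 that is hardly expressed in growing cells, was higher in stationary lysates. It had 3.75, 2.03, −0.63, −0.21, −0.12 and −4.95 in stationary lysates (trypsin, Qiagen and proteinase K series), against −4.45, −6.36, −1.97, −1.93, −4.71 and −5.31 in exponential lysates. The difference was 4.10 (SE 0.75, adjusted p = 0.0058), and 8.29 within the trypsin series (SE 1.30). ANB1, the eIF5A gene used without oxygen, differed by −2.68 (adjusted p = 0.14), and NEW1, a relative of eEF3, by −1.62 (adjusted p = 0.16). Neither passed the test over all series.

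Other genes of translation were set beside these. Of 130 ribosomal protein genes tested, 125 were lower in stationary lysates, with a median difference of −4.08, RPP2A the largest at −6.23 and RPS30A the smallest at −0.97 (adjusted p = 0.065). Of 11 cytosolic aminoacyl-tRNA synthetases, which charge tRNAs, 9 were lower (median −2.78, from −6.88 for YHR020W to −0.79 for ALA1, adjusted p = 0.30). Of 20 initiation factors 4 were lower (median −1.44): the eIF4A genes TIF1 (−3.39, adjusted p = 0.0064) and TIF2 (−3.17), HCR1 (−2.50), which works with eIF3, and TIF6 (−1.78), needed to make the large ribosomal subunit. TIF34, an eIF3 subunit, stood at 1.09 (adjusted p = 0.14). Of 3 genes of termination and rescue none was called by limma, and 0 of them had an unadjusted p under 0.05, with SUP35 (eRF3) at −1.23 and SKI7 at 0.68. The mitochondrial factors TUF1 and MEF2 differed by 0.32 and 1.51 and did not pass. Among 8 paralogs and modifying enzymes of elongation factors, HEF3 was higher and DPH5, which takes part in making the diphthamide of eEF2, was lower (−1.48, adjusted p = 0.035, but −1.18 and not called with quantile normalization). Of the stationary phase markers 6 of 7 were higher (median 6.14), and all 3 markers of growing cells tested were lower (median −4.07).

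Protease treatment was compared with buffer in lysates of the same cells, to ask whether protease changed the recovery of these mRNAs relative to the typical gene. Centring removes a change shared by most genes, so the centred fits cannot show whether the amount recovered changed. In stationary lysates none of the 9 genes was called by limma (0% of 2399 genes were), and 1 of the 9 had an unadjusted p under 0.05. The differences ran from 0.20 for CAM1, which turned to −0.04 with quantile normalization, to 2.66 for YEF3, with adjusted p between 0.22 and 0.83. YEF3 averaged 1.77 ± 1.43 with protease and −0.89 ± 3.75 in buffer (SD, n = 6 each), a 95% interval of −0.22 to 5.54. Both stationary proteinase K arrays with protease, and 1 of the 2 in buffer, were those with exponential marker levels (−7.52 to −6.75), and their part in the result was not tested. With that series left out YEF3 differed by 4.12 (SE 1.83, adjusted p = 0.42) and again none of the 9 was called by limma (0% of 2379 genes, and 1 of the 9 at an unadjusted p under 0.05). Without centring, TEF2, EFB1 and HYP2 were called higher with protease, where 16.5% of all genes were higher and 0.0417% lower and the median over all genes stood at 1.37.

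By the methods each lysate was divided between protease and buffer, but no source used here says which tubes shared a lysate. Arrays of equal replicate number, series and growth phase deviated together (r above 0.1) in 1 of 7 such pairs of groups, that of the 2 min lysates (r = 0.88). Replicate 2 of both its groups matched the 30-480 min course, so a shared lysate cannot be read from it. The other pairs ran from −0.68, in the stationary Qiagen series, to 0.04, so the values do not bear out this pairing of arrays. With these arrays taken as parts of 1 lysate, a fit added after seeing the data, YEF3 was called higher with protease in stationary lysates by 2.66 (SE 0.41, adjusted p = 0.028), where 1.87% of 2299 genes were higher and 3.09% lower. TEF4 (2.10, adjusted p = 0.058) and the other 7 were not called, and HEF3 was lower by 2.20 on the log2 scale (adjusted p = 0.047). In that limma fit no gene of the 9 was called in exponential lysates (1 at an unadjusted p under 0.05), for the difference between growth phases (6, with YEF3 at 4.19, SE 0.62, adjusted p = 0.050) or at 2 min (0).

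The trypsin series held the largest such differences. With trypsin, YEF3 had 0.56 and 0.84, against −5.64 and −5.27 in buffer, and TEF4 had −0.50 and −0.55 with trypsin, against −5.38 and −4.66 in buffer. EFT1 had −0.30 and −0.10 with trypsin, against −3.54 and −4.82 in buffer. None of these pairs overlapped. The differences were 6.16 for YEF3 (SE 2.36, adjusted p = 0.13), 4.50 for TEF4 (adjusted p = 0.15) and 3.98 for EFT1 (adjusted p = 0.14), and none passed the test, in a series where 0% of genes did. HEF3 ran the other way, at −0.42 and −0.26 with trypsin and 3.75 and 2.03 in buffer. Stationary markers moved with these values, averaging 0.52 and 0.32 with trypsin and 2.78 and 2.16 in buffer. Their part in the result was not tested.

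In exponential lysates none of the 9 genes was called by limma (0% of 2461 genes, and 0 of the 9 at an unadjusted p under 0.05), with differences between −1.47 for YEF3 and 0.01 for TEF1. That of TEF1 turned to −0.19 without centring and that of HYP2 (−0.11) to 0.04 with quantile normalization. The effect of protease in stationary lysates minus that in exponential lysates was 4.13 for YEF3 (SE 2.01, adjusted p = 0.32) and ran from 0.68 to 4.13 over the 9. None of these differences was called by limma, where 0% of 2304 genes were, and 0 of the 9 had an unadjusted p under 0.05.

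Lysates taken 2 min after menadione were compared with lysates of cells that had none, both in buffer in the trypsin series. YEF3 had 3.86 and −5.12 at 2 min, against −5.64 and −5.27 without menadione, so that the 2 arrays at 2 min stood far apart. Of 9 genes none was called by limma (0% of 2530 genes, and 0 of the 9 at an unadjusted p under 0.05), with YEF3 at 4.83 (SE 2.36, adjusted p = 0.54). The replicate that matched the 30-480 min course was the low one. Without it and its trypsin-treated partner, which matched the same course, 7 of the 9 were higher at 2 min, where 12.7% of 2461 genes were higher and 13.6% lower: YEF3 by 9.32 (SE 1.30, adjusted p = 0.001), TEF4 by 5.95, EFT1 by 5.36, EFB1 by 5.25, EFT2 by 5.02, TEF1 by 3.80 and TEF2 by 3.36. Without the low buffer array alone YEF3 differed by the same 9.32 but had an adjusted p of 0.059, and none was called. Without the other replicate of both treatments none was called, and YEF3 differed by 0.34. Each of these rests on 1 buffer array at 2 min, assumed to vary like the other groups. On the array that gave the 9.32 the stationary markers averaged −1.50, and on the low one 2.36. Without menadione they averaged 2.16 and 2.78 in buffer. Their part in the result was not tested. Trypsin against buffer at 2 min gave differences between −0.45 and 0.37, none of them called by limma (0% of 2556 genes, 0 of the 9 at an unadjusted p under 0.05). All 8 of those below 0 turned positive without centring. Without the 2 arrays that match the 30-480 min course none of the 9 was called by limma either (0% of 2427 genes higher and 0.0412% lower, and 0 of the 9 at an unadjusted p under 0.05), with YEF3 at −0.49 (SE 1.50) on 1 array of each treatment.

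The hours course is given as a description. YEF3 began at −5.74 to −3.86 (median −4.70) on the 6 arrays at 0 h, stood at −2.19 and −2.44 at 0.5 h and at −1.98 and −2.49 at 1 h, and reached −6.91 and −7.59 at 4 h. At 5 to 8 h its 14 values ran from −8.43 to −6.63 (median −7.41), all below those of 0 h. One array at 2.5 h stood at 3.75 while its partner had −4.62. On average YEF3 was 2.35 above 0 h at 0.5 h and 2.85 below it at 5 to 8 h. Without centring, which moved all genes by 1.22 and 1.15 at these times, the same differences were 3.57 and −1.70. Stationary markers moved as well, averaging 1.69 to 2.21 at 0 h, 0.45 and 0.58 at 0.5 h and 0.54 to 1.48 at 5 to 8 h. Their part in the result was not tested.

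After centring, RLI1 had a lower median in each later stretch of the course. It had 0.44 to 2.38 (median 1.38) at 0 h, 1.72 and 0.41 at 0.5 h, −0.78 to 1.55 (median −0.35) at 1 to 2 h, −2.78 to −0.17 (median −1.52) at 2.5 to 4.5 h and −3.35 to −2.10 (median −2.59) at 5 to 8 h. At 0.5 h its mean lay 0.26 below that of 0 h after centring but 0.96 above it without centring. Its mean at 5 to 8 h lay 3.99 below that of 0 h, and 2.84 below it without centring, the largest such distance among the 10 genes under both scalings.

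The eEF2 genes and EFB1 also ended below 0 h under both scalings. EFB1 had −3.16 to −2.26 (median −2.43) at 0 h, −1.59 and −1.32 at 0.5 h and −4.60 to −3.73 (median −4.05) at 5 to 8 h. EFT2 had −4.00 to −3.12 (median −3.75) at 0 h and −5.68 to −4.39 (median −4.96) at 5 to 8 h. EFT1 had −4.11 to −3.19 at 0 h and −5.87 to −4.94 at 5 to 8 h, but 1.24 and 1.25 on a single array at 2.5 h and at 3.5 h, where EFT2 read −3.12 and −4.13. For TEF1, TEF2, TEF4, CAM1 and HYP2 the mean at 5 to 8 h minus that at 0 h was −1.04, −1.02, −0.52, −0.54 and −0.19 after centring but 0.11, 0.13, 0.63, 0.61 and 0.96 without centring. After centring, all late values of 6 of the 10 genes lay below all of their 0 h values, and the values of the other 4 overlapped. How many of all genes did so is not given, so the count is no trait particular to the 10.

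**Figure D2:**
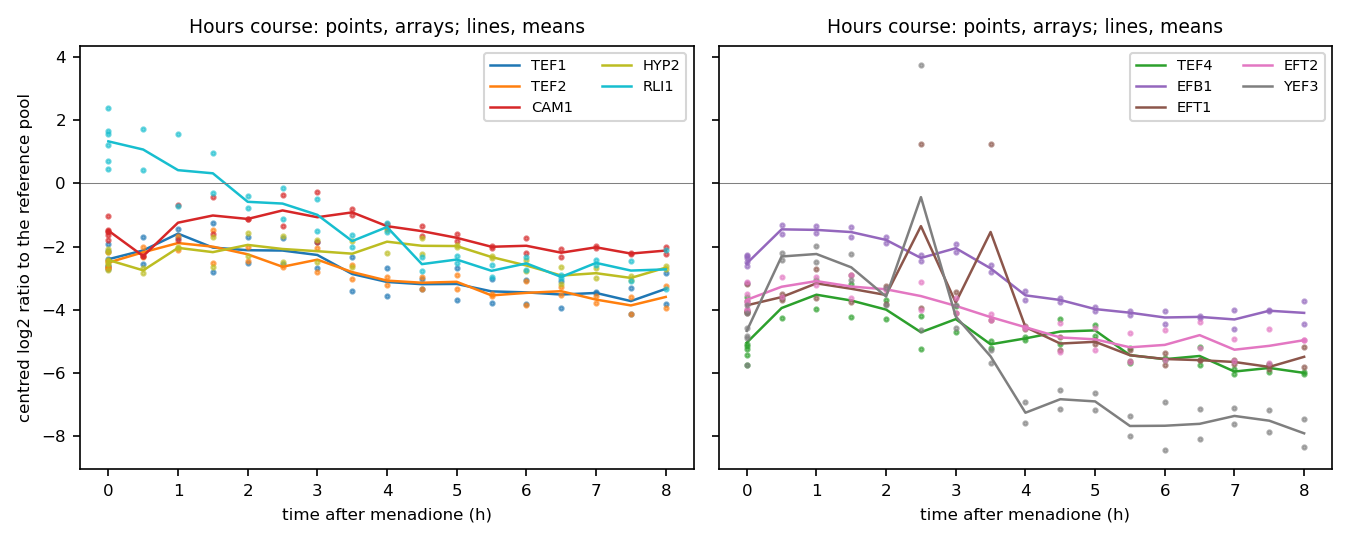
Centred log2 ratio of the 10 genes against time after menadione in hours, points for arrays (6 at 0 h, 2 at each later time) and lines for means. YEF3 stands at −2.19 and −2.44 at 0.5 h and between −8.43 and −6.63 at 5 to 8 h, RLI1 passes from above 0 to between −3.35 and −2.10, and single arrays of YEF3 and EFT1 stand above the rest at 2.5 and 3.5 h. The late means of all 10 genes lie under the 0 h means as drawn, and those of TEF1, TEF2, TEF4, CAM1 and HYP2 lie above them without centring.

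HEF3, after centring, ran opposite to YEF3 at the start, with 1.14 to 2.13 at 0 h and −1.77 and −0.14 at 0.5 h. At 5 to 8 h it had 0.71 to 1.92 (median 1.16).

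The minute course asked what changed within minutes of menadione. Of the 9 genes tested without RLI1, 4 were higher at 1 to 10 min than at 0 min: the eEF2 genes EFT1 and EFT2, the eIF5A gene HYP2 and the gamma subunit gene CAM1. Of all 3843 genes tested 21.4% were called higher and 16.7% lower. The arrays at 0 min were of another array design than all later ones, so time and design cannot be told apart in these values. Without the arrays at 2 and 30 min that match the polymerase set the same 4 were higher, where 21.4% of 3867 genes were higher and 16.7% lower.

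EFT1 had −2.85 to −1.59 (median −2.40) on 20 arrays at 1 to 10 min and −4.29 to −3.15 (median −3.96) on 6 at 0 min, and EFT2 had −2.59 to −1.65 (median −2.16) and −4.07 to −3.22 (median −3.54) at the same times. HYP2 had −1.21 to −0.40 (median −0.80) at 1 to 10 min and −2.56 to −1.89 (median −2.28) at 0 min. CAM1 had −0.99 to 0.44 at 1 to 10 min and −1.98 to −1.24 at 0 min. In none of these did the groups overlap, and how many of all genes had groups apart is not given. The differences were 1.52 for EFT1 (SE 0.15, adjusted p = 3.3e-15), 1.40 for EFT2 (SE 0.13), 1.47 for HYP2 (SE 0.12) and 1.22 for CAM1 (SE 0.18, adjusted p = 1.3e-08). With quantile normalization they were 0.24, 0.21, 0.80 and 0.72, and none of them reached 2-fold. Arrays of equal replicate number deviated together (r above 0.1) in 621 of 630 pairs of groups of this course. The fit took them as independent, so its p-values are too small by an unknown amount.

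The other genes stayed under 2-fold. EFB1 differed by 0.81 (SE 0.13, adjusted p = 7.2e-08), TEF1 by 0.63 (adjusted p = 3.1e-06), TEF2 by 0.53 (adjusted p = 0.00092), YEF3 by 0.51 (adjusted p = 0.0014) and TEF4 by 0.28 (adjusted p = 0.26). For TEF1, TEF2, TEF4 and YEF3 the direction turned with quantile normalization, to −0.10, −0.25, −1.47 and −1.15. TEF4 and YEF3 were then called lower, where 1022 of all 3843 genes were called, 43.6% of these higher and the rest lower. YEF3 had −4.66 to −3.38 at 1 to 10 min and −5.19 to −4.19 at 0 min, and the groups overlapped. RLI1, described only, had −2.25 to 0.15 (median −0.31) at 1 to 10 min and 0.52 to 2.33 (median 1.46) at 0 min. Of 131 ribosomal protein genes 100 were higher at 1 to 10 min (median 1.42), but 4 with quantile normalization (median 0.22). Of 20 aminoacyl-tRNA synthetases 5 were higher and 1 lower (median 0.53), against 3 lower with quantile normalization (median −0.50), and of 26 initiation factors 1 was higher and 3 lower. The median of the 10 genes was 0.72 and that of all genes 0.13.

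Within the treated arrays, all of one design, little moved. At 26 to 35 min none of the 10 genes was called against 1 to 10 min (0.18% of 3899 genes were called higher and 0% lower). Below 0 were 9 of the 10 differences, of which that of YEF3 (−0.08) turned positive with quantile normalization. The median over all genes was 0.004, and how many of all genes lay below 0 or under the unadjusted p is not given. Of the 10 genes 6 had an unadjusted p under 0.05. EFT2 was the only one under the adjusted threshold, at −0.32 (SE 0.09, adjusted p = 0.03, 1.25-fold), with −2.74 to −2.33 at 26 to 35 min and −2.59 to −1.65 at 1 to 10 min. At 60 min none of the 10 was called against 1 to 10 min by limma (0.334% of genes were called higher and 0.488% lower, and 3 of the 10 had an unadjusted p under 0.05). CAM1 had −2.21 and −0.40 at 60 min (difference −0.96, adjusted p = 0.071) and RLI1 −4.08 and −0.40 (difference −1.58, adjusted p = 0.14), so in both replicate 1 stood low. Without replicate 2, CAM1 differed by −1.96 (adjusted p = 0.00092) and RLI1 by −3.16 (adjusted p = 0.0054), both called lower, with 60 min then resting on 1 array that is assumed to vary like the other groups. Without the arrays that match the polymerase set none of the 10 was called by limma at 26 to 35 min (0.178% of genes higher and 0.0255% lower, and 5 of the 10 at an unadjusted p under 0.05) or at 60 min (0.23% and 0.281%, and 3 of the 10).

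**Figure D3:**
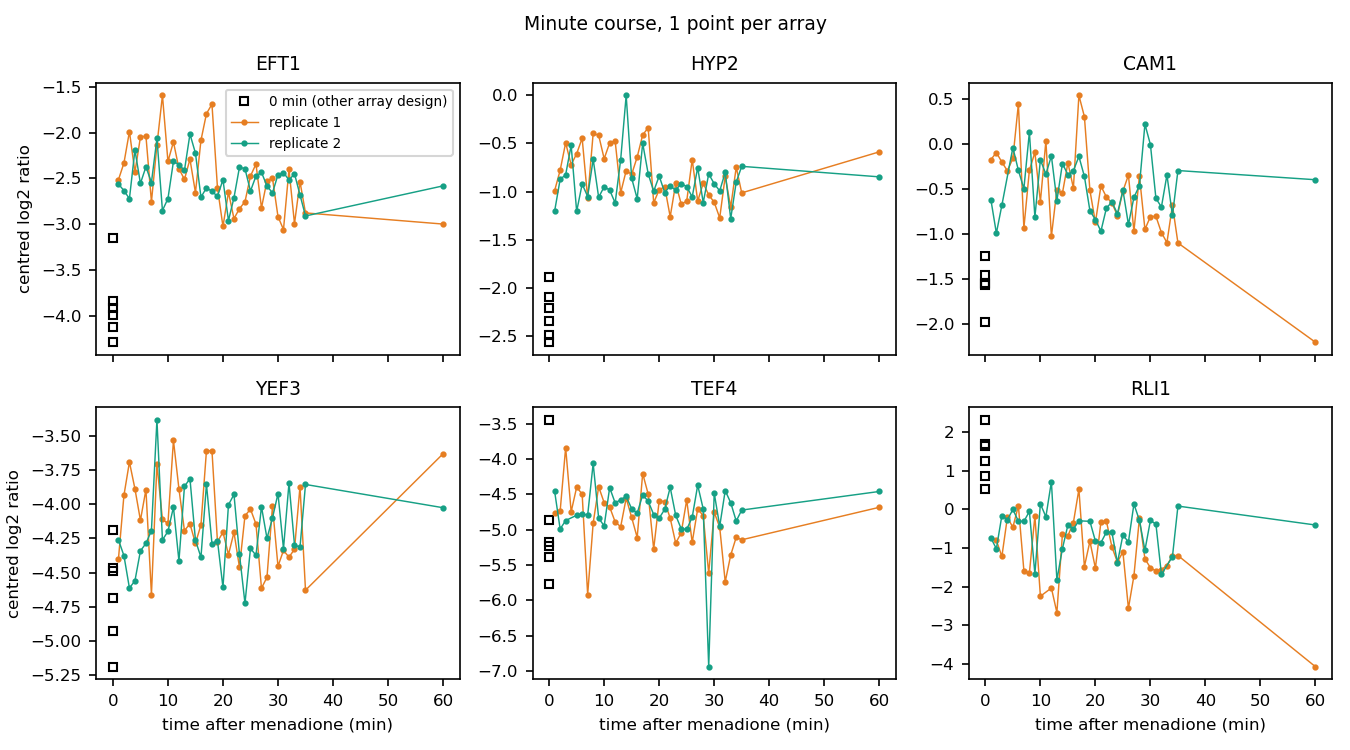
Centred log2 ratio against time after menadione in minutes, 1 point per array, lines joining the arrays of a replicate number, squares for the 6 arrays at 0 min, which are of the other array design. EFT1, HYP2 and CAM1 at 1 to 10 min lie above all their 0 min values after centring, YEF3 and TEF4 overlap theirs, and RLI1 lies below its own.

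HEF3 differed by replicate number, with overlap. Its treated arrays of replicate 1 ran from −2.60 to 1.84 (median −1.62, n = 36) and those of replicate 2 from 0.68 to 2.15 (median 1.54, n = 36), and 7 of replicate 1 lay within the range of replicate 2.

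In the ten-second course none of the 10 genes was called at 10 to 60 s against 0 s (0.0905% of 4420 genes were called in each direction, and 6 of the 10 had an unadjusted p under 0.05). YEF3 averaged −1.50 ± 0.31 at 10 to 60 s and 0.07 ± 2.15 at 0 s (SD, n = 6 each), a difference of −1.57 (SE 0.58, adjusted p = 0.21), and TEF4 differed by −1.61 (SE 0.59, adjusted p = 0.21). The 6 arrays at 10 to 60 s were successive times with 1 array each and no replicate. Their SD is a spread over times, and the fit took them as independent. At 0 s replicates 4 and 5, the arrays that matched S288c of the polymerase set, stood apart: YEF3 was 3.07 and 2.57 on them and −1.63 to −1.01 on the other 4, and TEF4 was 1.04 and 0.80 on them and −3.37 to −3.13 on the others. Stationary markers averaged −0.86 and −1.02 on these arrays and 1.29 to 1.76 on the others. Without them YEF3 differed by −0.19 and TEF4 by −0.22, and again none of the 10 was called, where 0.0465% of genes were called higher and 0.0698% lower. RLI1 had −0.17 to 1.11 at 10 to 60 s and −1.54 to 0.85 at 0 s, a difference of 0.64 (adjusted p = 0.32). Without centring, which raised the median of all genes by 0.83, it was called higher at 1.47 (adjusted p = 0.0051). Between 130 to 300 s and 10 to 60 s no gene of the 10 was called (0% of 4420, and 0 of the 10 at an unadjusted p under 0.05), with differences between −0.25 and 0.31, of which 7 turned positive without centring.

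The 30-480 min course compared late with early times, having no 0 min array. At 300 to 480 min 2 of the 10 genes, TEF4 and YEF3, were lower than at 30 to 120 min, where 3.04% of 2828 genes were lower and 2.55% higher. TEF4 had −7.37 to −4.57 (median −6.13) on 14 late arrays and −5.69 to −4.25 (median −5.15) on 8 early ones, a difference of −1.03 (SE 0.29, adjusted p = 0.010). YEF3 had −6.64 to −4.5 (median −5.48) late and −5.25 to −3.88 (median −4.47) early, a difference of −1.03 (SE 0.27, adjusted p = 0.0056). The early and late values of both genes overlapped. With quantile normalization the differences were −0.52 and −0.60 and neither was called.

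HYP2 was the one gene of the 10 whose late and early values did not overlap, a state not counted here over all genes. It had −3.47 to −2.52 (median −2.95) late and −2.21 to −1.75 (median −2.09) early. Its difference of −0.96 (SE 0.14, adjusted p = 5.1e-06) was 1.95-fold, just under the 2-fold limit. RLI1 had 0.20 to 2.05 late and 1.59 to 2.50 early (difference −0.80, adjusted p = 0.019). TEF2 ran the other way, at −1.28 to −0.53 late and −2.02 to −0.91 early (difference 0.55, adjusted p = 0.011), and TEF1 at 0.40 (adjusted p = 0.056). EFT1, EFT2, CAM1 and EFB1 differed by −0.01, −0.04, 0.04 and 0.11, and the 95% interval of EFT1 was −0.30 to 0.28. Of these, EFT1 and EFT2 changed sign with quantile normalization, and CAM1 and EFB1 without centring. Without replicate 1 TEF4 alone was called (−1.09, with YEF3 at −1.04 and an adjusted p of 0.10), and without replicate 2 HYP2 alone (−1.01, with TEF4 at −0.96 and an adjusted p of 0.25). Leaving out both arrays at 30 min kept TEF4 (−1.17) and YEF3 (−1.21) lower, where 2.92% of genes were.

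**Figure D4:**
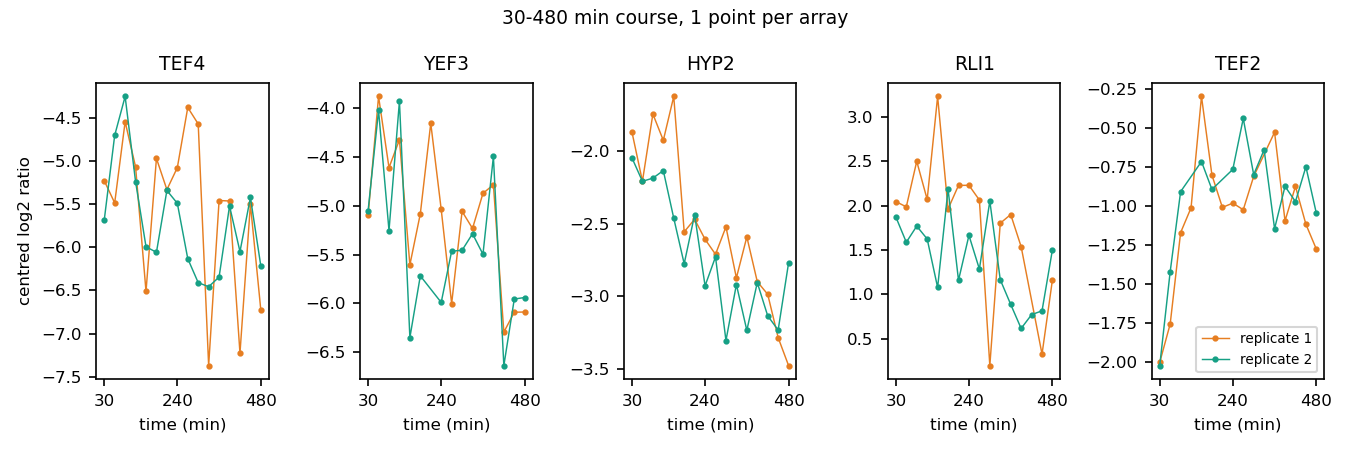
Centred log2 ratio of TEF4, YEF3, HYP2, RLI1 and TEF2 against time in minutes in the course without a 0 min sample, 1 point per array, lines joining arrays of a replicate number. HYP2 lies between −2.21 and −1.75 at 30 to 120 min and between −3.47 and −2.52 at 300 to 480 min, while the early and late values of the other genes overlap.

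The polymerase set asked whether the response to menadione needs RNA polymerase II. Over the 3 strains, 3 of 7 genes tested were lower at 2 min than at 0 min: YEF3 by 4.88 on the log2 scale, TEF4 by 4.32 and EFT2 by 1.68. In all, 6.76% of 1732 genes were called lower and 10% higher. At 30 min 4 of 7 were lower (YEF3, TEF4, EFB1 and EFT2), where 8.26% of genes were lower and 14.2% higher. TEF1, TEF2 and RLI1 lacked too many values to be tested.

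Strain by strain, YEF3 in the rpb1-1 mutant had −1.67 at 2 min and −1.66 at 30 min, against −1.39 on the single array measured at 0 min. In the parental strain it had −4.20 and −4.48, against 1.40 and 2.45 at 0 min, and in S288c −3.94 and −3.92, against 2.96 and 2.52 at 0 min. TEF4 had 0.43 and −0.21 in the mutant at 2 and 30 min, against 0.96 at 0 min. It had −5.31 and −5.06 in the parental strain, against 0.08 and 0.65 at 0 min, and −4.74 and −4.48 in S288c, against 0.93 and 0.74. EFB1 had 0.45 and 0.72 in the mutant at 2 and 30 min, against 0.28 at 0 min, where the parental strain had −1.52 and −1.97, against 0.58 and 0.99. In each of these 3 genes, after centring, the mutant's values at 2 and 30 min lay above those of both other strains. The difference between strains in the change with time was not tested, since each strain had 1 array at each later time.

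In the fit over strains the difference at 2 min was −4.88 for YEF3 (SE 1.09, adjusted p = 0.020), −4.32 for TEF4 (SE 0.84, adjusted p = 0.013) and −1.68 for EFT2 (SE 0.50, adjusted p = 0.044), and EFB1 (−2.14, adjusted p = 0.052), EFT1 (−1.51, adjusted p = 0.058), HYP2 (−0.70, adjusted p = 0.15) and CAM1 (−0.09, adjusted p = 0.90) did not pass, the last pair turning positive without centring. Without S288c, whose arrays match those of other sets, none of the 7 was called at 2 or 30 min by limma, where 0% of 1405 genes were, with YEF3 at −3.80 (SE 1.48, adjusted p = 0.33) and −3.93 (adjusted p = 0.26). Without the parental array at 2 min, or without that of S288c, none was called at 2 min, and the same held at 30 min for the arrays of that time. Without either S288c array at 0 min 1 was called at 2 min and 2 at 30 min, and 2 were called at 30 min without parental 0 min replicate 1. Without either mutant array at 0 min, or that at 30 min, 5 were called at 2 min. The stationary markers moved with these values, at 0.77 and 0.78 on the 2 arrays of the mutant at 2 and 30 min, from 1.66 to 1.85 on the 4 of the parental strain and S288c and from −1.19 to −0.05 on the 6 at 0 min. Their part in the result was not tested.

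The fit between strains included the S288c arrays that match other sets and is not given without all of them. By the methods the mutant is MATa and its parental strain MATα, so mutation and mating type cannot be told apart. Between strains, TEF4 was higher in the rpb1-1 mutant than in the parental strain, by 3.53 (SE 0.88, adjusted p = 0.033), the only one of 7 genes called, where 5.54% of genes were higher and 7.39% lower. It was not called without centring (2.95, adjusted p = 0.063) or with quantile normalization (3.41, adjusted p = 0.057), and none of the 7 was called without the mutant array at 2 or 30 min, parental 0 min replicate 1, the parental array at 2 or 30 min or either S288c array at 0 min. Without mutant 0 min replicate 1 or parental 0 min replicate 2, 3 and 2 genes were called. TEF1 and TEF2 stood at 2.73 and 3.03, and 2.63 and 3.04, on the mutant's arrays at 0 min, against 0.99 and 1.40 for TEF1 and 0.90 for TEF2 in the parental strain. HEF3 had 0.55 and −0.76 at 0 min in the mutant, against −0.39 and 0.47 in the parental strain.

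**Figure D5:**
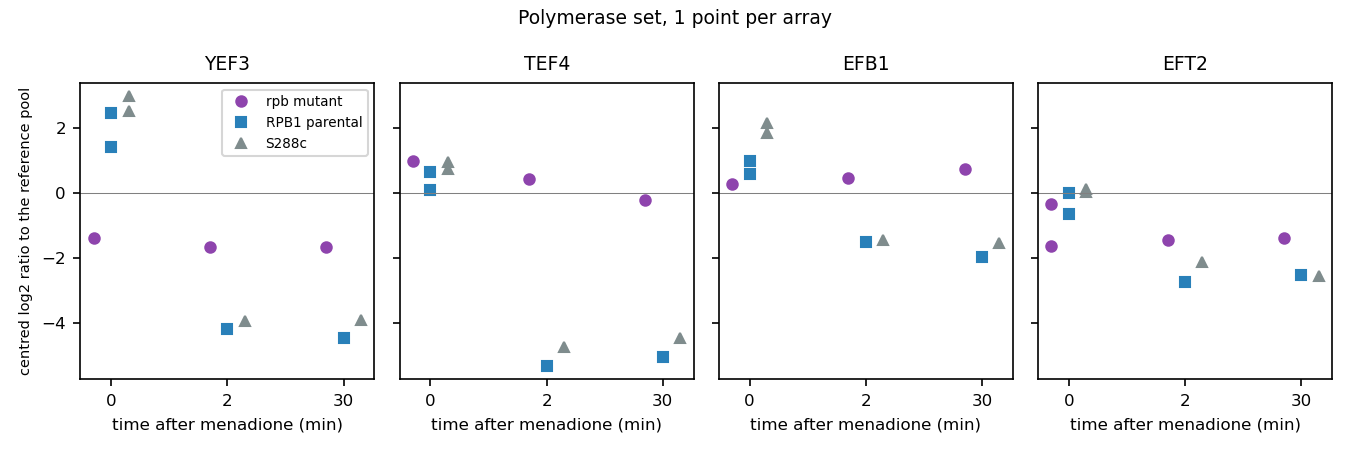
Centred log2 ratio of YEF3, TEF4, EFB1 and EFT2 by strain (mutant, parental, S288c from left to right) at 0, 2 and 30 min after menadione, times placed evenly and not to scale, 1 point per array. In the mutant YEF3 stays between −1.67 and −1.39, and in the parental strain and S288c all 4 genes, after centring, lie under their 0 min values at 2 and 30 min.

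The isolation set asked how the way of extracting RNA from untreated stationary cells changed what was measured. With proteinase K during isolation, 7 of the 10 genes were lower than with the laboratory's own protocol, where 15.1% of 4736 genes were lower and 10.7% higher. CAM1 differed most: it had −1.43 and −1.84 with proteinase K, against 0.47 and 0.73 with the own protocol, 4.70-fold lower (−2.23, SE 0.21, adjusted p = 0.0023). EFT1 had −0.88 and −1.25 with proteinase K, against 0.60 and 0.53 (−1.63, adjusted p = 0.0039), and EFT2 −0.93 and −0.76, against 0.60 and 0.69 (−1.49). YEF3 had 0.29 and −0.20, against 1.40 and 1.52 (−1.41, adjusted p = 0.0069). HYP2 (−1.35), EFB1 (−1.32) and TEF4 (−1.27) were lower as well, TEF4 no longer called with quantile normalization (−0.58). TEF2 (−0.91, adjusted p = 0.018) and TEF1 (−0.58, adjusted p = 0.030) stayed under 2-fold. RLI1 had 1.58 and 2.00 with proteinase K and 2.46 and 1.21 with the own protocol, and its difference of −0.05 (95% interval −1.16 to 1.07, adjusted p = 0.94) turned to 0.22 without centring.

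Of the ribosomal protein genes, 121 of 134 were lower with proteinase K (median −1.88), against a median of −1.33 for the 10 genes and −0.01 for all genes. ANB1 was lower as well (−1.28, adjusted p = 0.0045, and −0.96 with quantile normalization, under 2-fold), and HEF3 differed by −0.02 (adjusted p = 0.95). The stationary markers were −0.38 and −0.31 with proteinase K and 0.01 to 0.10 with the own protocol. All lay near the typical gene of their array and far below the 1.69 to 2.21 of untreated stationary cells in the hours course.

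With hot phenol, YEF3 alone was called against the own protocol, with −0.07 and −0.13 against 1.40 and 1.52 (−1.56, SE 0.21, adjusted p = 0.012), where 5.3% of genes were lower and 7.5% higher. EFT2 (−0.88, adjusted p = 0.021), CAM1 (−0.85, adjusted p = 0.049), EFT1 (−0.82, adjusted p = 0.043) and HYP2 (−0.67, adjusted p = 0.040) passed the adjusted threshold under 2-fold. RLI1 had 0.43 and 0.75 with hot phenol, against 2.46 and 1.21 (−1.25, adjusted p = 0.11), and TEF4 differed by 0.03, below 0 without centring and with quantile normalization. Without own protocol replicate 1, or without either hot phenol array, none of the 10 was called. Without own protocol replicate 2, YEF3 and RLI1 (−1.87, adjusted p = 0.025) were called. The mean of the genes other than RLI1 and that of the ribosomal protein genes on the hot phenol arrays lay between −0.18 and 0.07.

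Across all arrays the genes differed in how closely they followed one another, which is a description, since all arrays share the reference and the spread of growth phases. The correlation of a gene with the mean of the other 9 lay between 0.85 and 0.95 for TEF1, TEF2, TEF4, EFB1, EFT1, EFT2, YEF3 and HYP2. It was 0.66 for CAM1 over 213 arrays and 0.44 for RLI1 over 197. YEF3 followed EFB1 (0.93 over 216 arrays), and HEF3 ran against YEF3 (−0.60 over 215 arrays). The genes whose profile was most like the mean of the 10, among 3239 with enough values, were ASC1 (0.98), which encodes a ribosome-bound scaffold protein, RPS2 (0.98), SSB1 (0.97), SSB2 (0.97), encoding ribosome-associated chaperones, and RPL14A (0.97). YEF3 covered the widest range of all 10 genes, −8.43 to 5.86, and CAM1 and HYP2 the narrowest, −3.13 to 1.77 and −3.47 to 2.38.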

How the data were processed

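Sample RNA was labelled with Cy5 and the reference mix with Cy3 by the authors, and Arabidopsis CAB mRNA was added for normalization, per their methods. The authors deposited the ten-second course as log2 ratios normalized to exogenous controls. The 6 other sets were deposited as linear ratios, and whether that normalization is in them was not stated. The tests had been planned for log2 ratios, so log2 was taken of the linear ratios, and those of 0 or less (up to 37.9% of an array) or at the upper marker value were treated as missing. Genes were named through the platform annotation, with symbols updated through RefSeq (assembly R64). Both array designs were combined by gene: 1 held 6979 probes (143 arrays) and 1 held 6819 (76 arrays), of which 5923 and 5904 had 1 gene and 1056 and 915 none. Each of the 10 genes had 1 probe per design. Arrays held 742 to 5489 usable genes, and the number of arrays limits the precision.

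Each array was centred on its median. Linear models of cell means (of strain and time in the polymerase set) were fitted within each set with limma 3.58.1 and empirical Bayes moderation in R 4.3.3. Genes entered if 80% or more of the set's arrays, and every group compared, gave a value, and p-values were adjusted over all of them by the Benjamini-Hochberg method. Calls needed an adjusted p below 0.05 and a change of 2-fold or more. Neighbouring times were pooled into bins as if independent. A comparison of 2 against 2 arrays takes its spread from the whole set.

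The 10 genes and all gene lists were chosen with earlier results of these data known. Named besides them are 3 paralogs, the 5 genes with the most similar profile and, in each list, the genes with the largest and smallest growth phase difference. The initiation factors HCR1, TIF2 and TIF6 and DPH5 were named after their values were seen. Code was tested on simulations in which 200 genes changed. Tables were handled with pandas 2.3.3 and numpy 2.4.6 in Python 3.11.15. Alternatives were no centring, quantile normalization, a value in every array, robust moderation, the replicate number as a block, each array left out in turn and, added after seeing the data, the removal of arrays that match another set or go against their marker levels and a block by lysate.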

Additional observations from a re-analysis of the deposited data

Results flagged for a closer look

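TEF4 at 0 h of the hours course had 1 value far from the other 5. Replicate 1 stood at −3.58, and the others lay between −5.73 and −5.10. It was the only one of 30 such groups of the 10 genes with a sample at that distance, and chance alone gives about 1 in 20.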

How the results depend on the processing

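Counts below are of the 10 genes called in either direction, RLI1 included, and the cause of a change was not tested. Stationary against exponential lysates gave 8 calls in the centred fit, 4 with quantile normalization, 5 of 5 genes tested when every array had to hold a value, 0 within the Qiagen series, 0 within the proteinase K series and 0 to 9 with 1 array left out. Protease against buffer in stationary lysates gave 3 without centring and 1 with each lysate as a replicate block, a fit added after seeing the data. The 2 min lysates gave 7 without the arrays that match another set. The 4 protease comparisons and the 2 min lysates gave 0 whichever single array was left out.

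At 1 to 10 min the count was 5, 1 of them RLI1, which is a description and no test there. It was 3 with quantile normalization, RLI1 and, turned to lower, TEF4 (−1.47) and YEF3 (−1.15), 3 with a value in every array, where RLI1 did not enter, and 5 whichever replicate was left out. At 60 min 1 was called with quantile normalization, and 0 without replicate 1 and 2 without replicate 2, which leaves 1 array at 60 min. At 26 to 35 min it was 0 without either replicate. In the ten-second course 1 was called without centring and 0 whichever 0 s array was left out. The 30-480 min course gave 2 calls, 4 without centring, 0 with quantile normalization, 1 with a value in every array and 1 without either replicate. The median difference of the 10 genes at 5 to 8 h against 0 h of the hours course was −1.21, −0.056 without centring and −1.32 to −1.10 with arrays left out.

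In the polymerase set, 2 min gave 0 calls with a value in every array, 0 without S288c and 0 to 5 with 1 array left out. The 30 min comparison gave 2 without centring, 0 with a value in every array, 0 without S288c and 0 to 6 with 1 array left out. Mutant against parental gave 0 without centring, 0 with quantile normalization, 0 with a value in every array and 0 to 3 with 1 array left out. Without mutant 30 min the 30 min count was 6. Hot phenol gave 4 without centring, 4 with quantile normalization and 0 to 2 with 1 array left out, and proteinase K 7 to 8.

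Equal replicate numbers correlated above 0.1 in 3 of 27 pairs of groups in the lysate set, 115 of 120 in the hours course, 621 of 630 in the minute course, 92 of 120 in the 30-480 min course and 0 of 3 in the polymerase and isolation sets. The median r was 0.45 in the hours course, 0.36 in the minute course and 0.23 in the 30-480 min course. The main fits took arrays of equal replicate number as independent all the same. With the replicate number as a block the counts were 0 at 2 min and 1 at 30 min in the polymerase set, and 8 in the lysates. They were 5 at 1 to 10 min and 2 in the 30-480 min course. Of 135 single gene values with such a block 129 kept their call.

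Without centring the share of calls that were higher was 2.92% for lysates (51.5% centred), 99.7% for protease in stationary lysates (no calls centred), 77.8% at 1 to 10 min (56.2%, and 43.6% with quantile normalization), 100% at 10 to 60 s (50% centred), 5.17% in the 30-480 min course (45.6%), 85.1%, 87.5% and 9.09% in the 3 polymerase comparisons (59.8%, 63.2% and 42.9%), 61.4% with proteinase K (41.5%) and 36% with hot phenol (58.6%). Of 155 single gene values, 139 kept their call without centring, 136 with quantile normalization and all 155 with robust moderation.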
